A study of Rattus norvegicus with 2 samples.

Results

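The genes of 8 serotonin receptors, Htr1a, Htr1b, Htr2a, Htr2c, Htr3a, Htr4, Htr6 and Htr7, were followed in the hypothalamus of female Sprague Dawley rats before and at puberty. They were taken by gene name from the 22728 named genes in the mRNA table, and all 8 were listed, with 10 transcripts between them. RNA was sequenced from prepubertal rats on postnatal day 25 and from pubertal rats on postnatal day 35, in their first estrus. Both stages were untreated animals of the same strain, so age and estrus stage differed together and cannot be told apart. The design names 3 hypothalamuses per stage, but a single column of values stands for each stage. The stages are therefore set against each other as 2 libraries (n = 1 each), and no difference has a check against the spread between rats.

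Serotonin reaches the hypothalamus through the axons of raphe neurons in the brainstem, and acts there on feeding, body temperature, stress hormones and the release of gonadotropins. Its receptors are G protein-coupled, apart from Htr3a, which encodes the main subunit of a cation channel opened by serotonin. Htr1a and Htr1b couple to Gi, which lowers cyclic AMP, and Htr2a and Htr2c couple to Gq, which activates phospholipase C. Htr4, Htr6 and Htr7 couple to Gs, which raises cyclic AMP.

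Levels are given as FPKM, the number of sequenced fragments scaled for transcript length and for the mapped fragments of the library, so they can be set side by side between genes within a library. FPKM of genes with 1 transcript stepped in whole multiples of a single unit that depended on transcript length. From this unit, fragment numbers were recovered for transcripts over 900 nt, and 92.6% of 9598 prepubertal and 92.4% of 10301 pubertal values up to 1000 fragments were whole within 0.05. The fragments on such mRNAs summed to about 18700000 before puberty and 14400000 at puberty. Intervals at 95% were computed from the fragment numbers. They cover counting error only, neither PCR duplicates nor the spread between rats, and they compare these libraries, not the stages.

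Htr2c was the most abundant of the 8 receptor genes in both libraries, with 65.5 FPKM before puberty (interval 63.7 to 67.3, 5147 fragments) and 67.8 FPKM at puberty (65.8 to 69.9, 4168 fragments). It made up 57.9% of the summed FPKM of the 8 genes before puberty and 58.3% at puberty, and its mean level lay at the 90.1st percentile of the 18022 genes above 0 FPKM in either library. Htr7 came next, at 15.8 and 12.4 FPKM, and Htr6 was last, at 0.456 and 0.268 FPKM. The other 5 genes lay between 4.57 and 8.66 FPKM in both libraries. By mean level Htr7 was at percentile 61.6 of all genes, Htr6 at percentile 16.0, and these 5 genes between 41.4 and 50.6. The share of Htr7 in the summed FPKM was 13.9% before and 10.6% at puberty, and that of Htr4 5.78% and 7.42%.

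**Figure D1:**
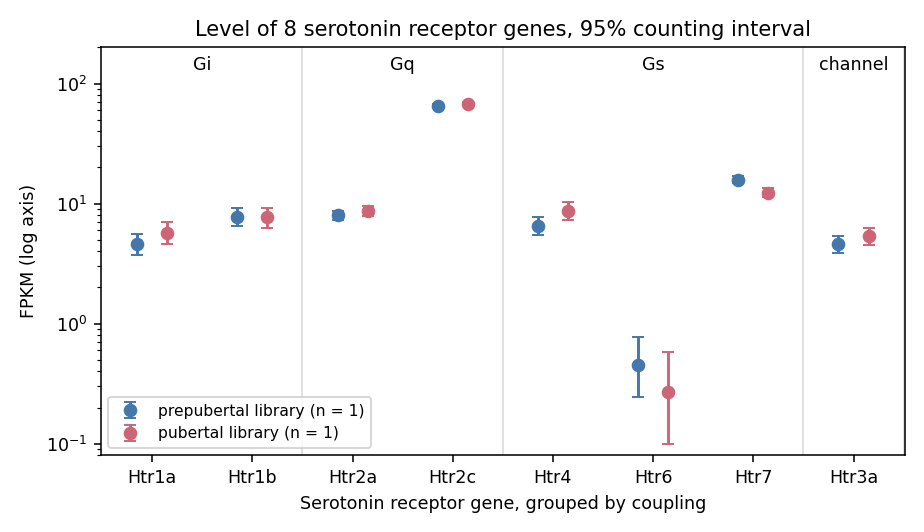
FPKM (log axis) of the 8 receptor genes in the prepubertal (blue) and pubertal (red) library, 1 library per stage, grouped by the G protein or channel type, with 95% counting intervals as bars. Htr2c sits at 65.5 and 67.8 FPKM, Htr6 at 0.456 and 0.268, and the rest lie between them.

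The order of levels began with Htr2c, Htr7 and Htr2a in both libraries, and the counting intervals of the ratios between them excluded 1. Below Htr2a the genes were close together. Of the 7 neighbouring pairs, the interval of the ratio included 1 in 3 before puberty (Htr2a with Htr1b, Htr1b with Htr4, Htr3a with Htr1a) and in 3 at puberty (Htr2a with Htr4, Htr4 with Htr1b, Htr1a with Htr3a), so the order within these pairs was not resolved by the depth. At puberty Htr1b was above Htr1a by a factor of 1.34, with an interval from 1.01 to 1.79. Htr6 lay far below its nearest neighbour, which was Htr1a at 4.57 FPKM before puberty and Htr3a at 5.32 FPKM at puberty.

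In the pubertal library 5 of the 8 genes had a higher FPKM and 3 a lower FPKM than in the prepubertal library, where 49% of all 18022 genes were higher. The median log2 ratio of FPKM + 1, pubertal over prepubertal, was 0.08 for the 8 genes and -0.01 for all genes. The 1 added to each FPKM draws the ratios of low genes, such as Htr6, towards 0. A difference of at least 1.5-fold on this scale was found in 0 of the 8 genes, from -0.33 for Htr7 to 0.35 for Htr4. The same limit was passed by 4.11% of the 18022 genes, and by 4.13% of the 13783 genes with a mean FPKM of at least 1. Summed over the 8 genes, the level was 113 FPKM before puberty and 116 FPKM at puberty, a ratio of 1.03.

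**Figure D2:**
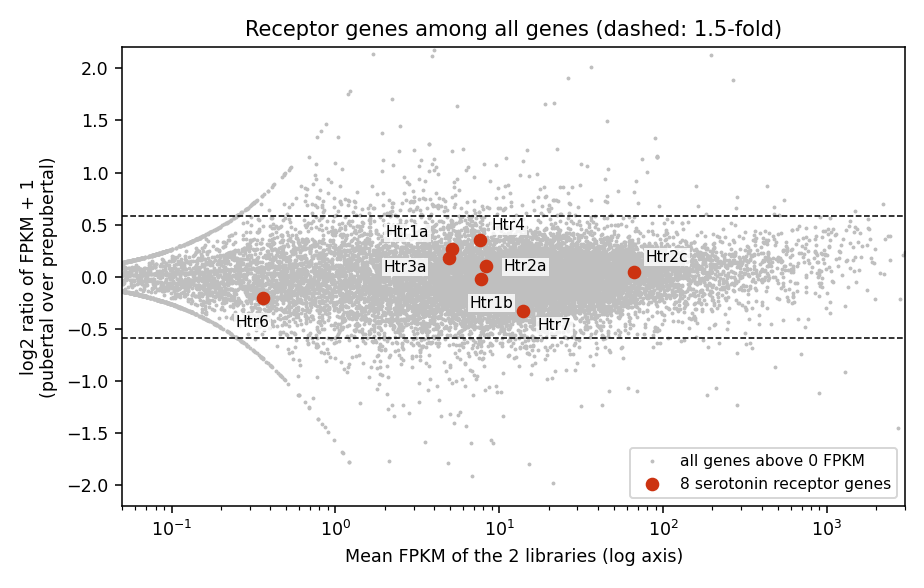
Log2 ratio of FPKM + 1 (pubertal over prepubertal) against the mean FPKM of both libraries (log axis), for all genes above 0 FPKM (grey) and the 8 receptor genes (red), with dashed lines at 1.5-fold. The receptor genes lie between -0.33 and 0.35, inside the dashed lines, and 941 genes lie outside the axes.

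As deposited, the counting interval of the FPKM ratio excluded 1 for 2 of the 8 genes, Htr7 and Htr4, against 36.3% of the 15001 genes with fragment numbers. It lay below 1 for Htr7 alone among the 8, against 21.2% of those 15001 genes. Intervals narrow with the number of fragments, so they were narrowest for Htr2c, with 5147 and 4168 fragments, and widest for Htr6, with 13 and 6.

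**Figure D3:**
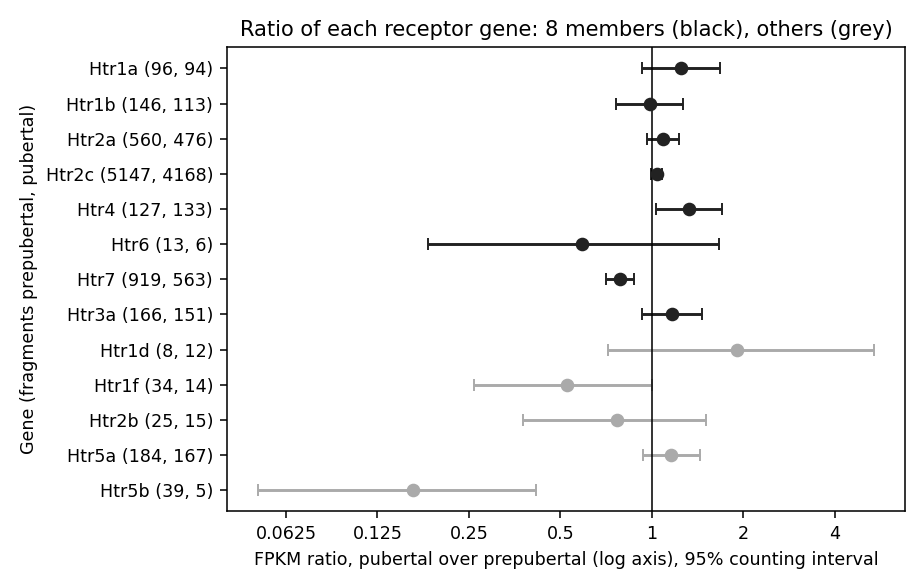
FPKM ratio, pubertal over prepubertal (log axis), with 95% counting intervals for the 8 receptor genes (black) and 5 further serotonin receptor genes above 0 FPKM in both libraries (grey), with the fragments of each library in parentheses. The interval of Htr7 lies below 1, at 0.705 to 0.872, that of Htr4 lies above 1, at 1.03 to 1.70, and the other 6 black intervals include 1.

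Among the Gi-coupled receptors, Htr1a (ENSRNOG00000010254), which encodes the receptor that also serves as the autoreceptor on raphe cell bodies, was measured at 4.57 FPKM before puberty and 5.70 FPKM at puberty. These values rest on 96 and 94 fragments. The ratio was 1.25 (0.929 to 1.68), so a difference in either direction was not detectable at this depth. Htr1b (ENSRNOG00000013042), whose receptor sits on axon terminals and limits transmitter release, had 7.77 and 7.66 FPKM from 146 and 113 fragments, a ratio of 0.986 (0.764 to 1.27). The libraries could not be told apart for Htr1b at this depth, and its direction turned to higher at puberty when the libraries were scaled to equal medians or to equal neuronal genes.

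Both Gq-coupled receptors had slightly higher values in the pubertal library, with intervals of the ratio that included 1 as deposited. Htr2a (ENSRNOG00000010063), known for its part in the action of hallucinogens, had 7.96 and 8.66 FPKM from 560 and 476 fragments. Its ratio was 1.09 (0.960 to 1.23). Htr2c (ENSRNOG00000030877), whose receptor acts on pro-opiomelanocortin neurons to reduce feeding and whose mRNA is edited, had a ratio of 1.04 (0.994 to 1.08). The interval of Htr2c was the narrowest of the 8, and its side of 1 depended on the scaling. It ran from 1.003 to 1.09 with the libraries scaled to equal 75th percentiles, from 1.04 to 1.13 with equal medians and from 1.04 to 1.12 with equal neuronal genes. That of Htr2a also lay above 1 with equal medians, at 1.004 to 1.29. Htr2c is also strongly expressed in the epithelium of the choroid plexus. All 8 markers of that tissue were above 0 FPKM, with Ttr at 29.0 and 23.0 FPKM and the other 7 at up to 3.01 FPKM, and 4 were higher and 4 lower at puberty. Their summed level was 39.6 FPKM before puberty and 34.5 FPKM at puberty, a difference set by Ttr, since the other 7 summed to 10.6 and 11.5 FPKM. The part of this tissue in the value of Htr2c was not tested.

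The Gs-coupled receptors held both the highest and the lowest ratios of the 8 genes. Htr7 (ENSRNOG00000018827), whose receptor takes part in circadian phase shifts and thermoregulation, had 15.8 FPKM before puberty and 12.4 FPKM at puberty. It rests on 919 and 563 fragments, and its ratio was 0.784 (0.705 to 0.872). Htr4 (ENSRNOG00000019134), whose receptor promotes transmitter release, had 6.54 and 8.64 FPKM from 127 and 133 fragments, a ratio of 1.32 (1.03 to 1.70). Htr6 (ENSRNOG00000049761), which encodes a receptor best known from striatum and cortex, had 0.456 and 0.268 FPKM. With 13 and 6 fragments its ratio of 0.589 had an interval from 0.184 to 1.66, so neither a fall nor a rise could be read from it. The summed FPKM of these 3 genes was 22.8 before puberty and 21.3 at puberty.

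The channel subunit Htr3a (ENSRNOG00000006595), which in the forebrain is known from a class of GABAergic interneurons, had 4.58 FPKM before puberty and 5.32 FPKM at puberty. The values rest on 166 and 151 fragments and gave a ratio of 1.16 (0.926 to 1.46), so a difference was not detectable at this depth. The summed FPKM of the Gi-coupled pair was 12.3 before and 13.4 at puberty, and that of the Gq-coupled pair 73.5 and 76.5. Set by Htr2c, the Gq-coupled pair stood above the other classes in both libraries.

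Ratios between receptors within a library do not depend on the scaling between the libraries. Htr7 was at 24.1% of the level of Htr2c before puberty and at 18.2% at puberty, and this share was lower at puberty by a factor of 0.757 (0.676 to 0.847). Htr4 was at 9.99% and 12.7% of Htr2c, a factor of 1.28, and its interval of 0.997 to 1.63 then included 1. For the other 5 genes the interval of this factor also included 1.

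RNA came from dissected hypothalamic tissue, and the borders of the dissection are not given. Fewer cells of a type and less RNA per cell cannot be told apart in libraries from tissue. Of the 11 hypothalamic markers, all were detected, with Pmch at 1675 and 2723 FPKM and Oxt at 411 and 686 FPKM, and 8 were higher at puberty. The rest were lower, Otp at 1.32 and 0.870 FPKM, Nkx2-1 at 2.67 and 2.47 FPKM and Avp at 254 and 240 FPKM. Thalamic and cortical markers had, as Htr7 did, mostly lower values at puberty. All 4 thalamic markers, of which Slc17a6 is also a hypothalamic gene, were lower at puberty, with a summed level of 339 FPKM before and 289 FPKM at puberty, as in Tcf7l2 from 19.9 to 12.2 FPKM. Of 6 markers of cortex and hippocampus 4 were lower, with a summed level of 34.1 and 17.1 FPKM. Of 5 striatal markers 3 were lower, with a summed level of 43.7 and 46.1 FPKM. Of 11 neuronal markers 8 were lower, with a summed level of 2915 and 2784 FPKM. The part of these differences in the value of Htr7 was not tested.

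A pair of the receptor genes had 2 transcripts each. For Htr4, transcript ENSRNOT00000025871 (1184 nt) went from 5.90 to 6.77 FPKM and transcript ENSRNOT00000065483 (1261 nt) from 0.641 to 1.87 FPKM. The shorter transcript therefore held 89.5% of the gene's fragments before puberty and 77.0% at puberty. The fragments were divided by estimation into 113.6 and 13.4 before puberty and 102.4 and 30.6 at puberty, which are not whole, while their sums of 127 and 133 were. The error of the division is not given. For Htr7, transcript ENSRNOT00000025493 (3080 nt) held 99.6% of the fragments before puberty and 99.5% at puberty. The other Htr7 transcript, ENSRNOT00000025450 (1525 nt), was at 0.153 and 0.147 FPKM. The lower level of Htr7 at puberty therefore lay in its long transcript.

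Promoter windows from RefSeq (build GRCr8, 250 bases before to 50 bases after the gene start) were matched by symbol for 4 of the 8 genes, Htr1b, Htr2c, Htr6 and Htr7. The files were made on another build, so the windows carry no measured value. The windows of the most abundant receptor gene and of the gene with the lowest ratio among those with many fragments are shown to let them be compared. Capitals mark matches, on either strand, to the TATA box (TATAAA), the CCAAT box, the GC box (GGGCGG), the core of the cyclic AMP response element (TGACG), the nuclear receptor core (GGTCA) and the E-box (CACGTG). None of these letters overlap another match in the windows shown, and the Htr2c window holds 1 CCAAT and the Htr7 window 1 TGACG, both as the reverse complement.
Htr2c, chrX:115452940-115453239, + strand: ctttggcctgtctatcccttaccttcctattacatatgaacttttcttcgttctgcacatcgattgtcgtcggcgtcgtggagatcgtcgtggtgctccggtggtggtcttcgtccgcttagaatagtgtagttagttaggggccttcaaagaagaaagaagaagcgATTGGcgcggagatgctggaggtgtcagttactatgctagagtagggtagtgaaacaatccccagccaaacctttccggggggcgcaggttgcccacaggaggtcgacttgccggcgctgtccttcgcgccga
Htr7, chr1:243172999-243173298, - strand: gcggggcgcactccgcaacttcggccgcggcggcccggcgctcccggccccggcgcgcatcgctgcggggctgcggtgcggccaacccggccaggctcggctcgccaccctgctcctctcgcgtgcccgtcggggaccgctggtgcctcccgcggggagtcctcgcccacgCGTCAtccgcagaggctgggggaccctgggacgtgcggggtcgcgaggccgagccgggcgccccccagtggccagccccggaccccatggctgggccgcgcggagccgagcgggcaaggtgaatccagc

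The windows differed in base composition. The Htr7 window was 79.7% G and C with 44 CpG dinucleotides, that of Htr6 68.0% with 23, and those of Htr1b and Htr2c 53.7% with 11 and 22. Over all 33469 windows the median was 51.7% with 7 CpG dinucleotides. CCAAT was found once in the Htr2c window and at 2 places in that of Htr1b, and is held by 37.5% of all windows. TGACG was found once, in the Htr7 window, and is held by 21.2%. TATAAA (14.2% of all windows), GGGCGG (33.1%), GGTCA (40.5%) and CACGTG (6.42%) were found in 0 of the 4 windows. A match describes these letters and no site.

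The remaining 6 serotonin receptor genes were all under 2 FPKM in both libraries, apart from Htr5a. Htr5a had 5.21 and 6.04 FPKM, a ratio of 1.16 (0.934 to 1.44), within the range of the middle group of the 8 genes. Htr5b had 1.03 FPKM before puberty and 0.169 FPKM at puberty, from 39 and 5 fragments. Its ratio was 0.164 (0.0504 to 0.416), and it was the 1 gene of these 6 past 1.5-fold, against 2.31% of all genes lower past this limit. Htr5b is known as a gene of the medial habenula. Of 10 habenular markers, chosen after the values were seen, 8 were lower at puberty, as in Chrna3 from 6.32 to 2.24 FPKM and Gpr151 from 6.18 to 3.07 FPKM, while Tac1 and Calb2 were higher. Their summed level, set mainly by Calb2, was 426 and 471 FPKM, and their part in the value of Htr5b was not tested. Htr1f had 1.94 and 1.02 FPKM, a ratio of 0.524 (0.260 to 1.003). Htr1d had 0.444 and 0.847 FPKM, a ratio of 1.91 (0.718 to 5.39) from 8 and 12 fragments. Htr2b had 0.701 and 0.537 FPKM, and Htr3b, the other channel subunit, was listed at 0 before puberty and rested on 1 fragment at puberty. A limit of 3 fragments, set for genes listed at 0, would be 0.133 FPKM for Htr3b before puberty.

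Genes that make, store, take up and break down serotonin were measured beside the receptors. Of 14 such genes 13 were above 0 FPKM, with 7 higher and 6 lower at puberty and a median log2 ratio of 0.04. Those past 1.5-fold were 1 higher, against 1.8% of all genes, and 3 lower, against 2.31%. Ddc, the decarboxylase shared by serotonin and dopamine synthesis, had 30.6 FPKM before and 46.5 FPKM at puberty, and with a log2 ratio of 0.59 lay just past the limit. Slc22a3 and Slc29a4, low-affinity transporters of monoamines, went from 3.43 to 1.74 FPKM and from 4.37 to 2.18 FPKM. Tph1, a tryptophan hydroxylase known from pineal gland and gut, went from 1.34 to 0.203 FPKM. Maoa and Maob, the monoamine oxidases, were the most abundant of the list with Qdpr, at 79.1 and 96.0, 73.7 and 81.3, and 62.0 and 83.1 FPKM.

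Of the transcripts that define serotonin neurons, Tph2 was detected at a low level, and Slc6a4 and Fev were at or near the limit of detection. Tph2, the neuronal tryptophan hydroxylase, had 1.02 and 0.715 FPKM from 49 and 27 fragments, with an interval of the ratio from 0.423 to 1.15. Slc6a4, the serotonin transporter, rested on 1 and 2 fragments. Fev, a transcription factor of raphe serotonin neurons, was listed at 0 in both libraries. The limit of 3 fragments would be 0.116 FPKM for Fev before puberty and 0.148 FPKM at puberty. Slc18a2, the vesicular transporter that dopamine and histamine neurons also use, was at 19.5 and 23.0 FPKM.

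Downstream of the receptors, 23 of 24 listed signalling genes (G proteins, adenylyl cyclases, phospholipases C beta and potassium channels opened by G proteins) were above 0 FPKM. Of these 5 were higher and 18 lower at puberty, where 49% of all genes were higher, with a median log2 ratio of -0.18 and a range from -0.44 to 0.72. The 1 gene past 1.5-fold was Kcnj5, a channel subunit, with 1.95 FPKM before and 3.88 FPKM at puberty, and 1 of 23 is close to the 4.11% of all genes past this limit. The most abundant were Gnas, the Gs alpha subunit through which Htr4, Htr6 and Htr7 signal, at 950 and 839 FPKM, Gnb1 at 268 and 209 FPKM, and Gnai2 at 125 and 137 FPKM. Among 11 receptor partners and RNA-editing enzymes 0 were past 1.5-fold, against 4.11% of all genes, and their median log2 ratio was 0.01. Rgs4, which shortens Gi and Gq signals, was the most abundant of these at 179.6 and 151 FPKM. Adarb1, an enzyme that edits Htr2c mRNA, was at 89.4 and 84.3 FPKM, and S100a10, a partner of Htr1b and Htr4, at 78.2 and 88.1 FPKM.

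**Figure D4:**
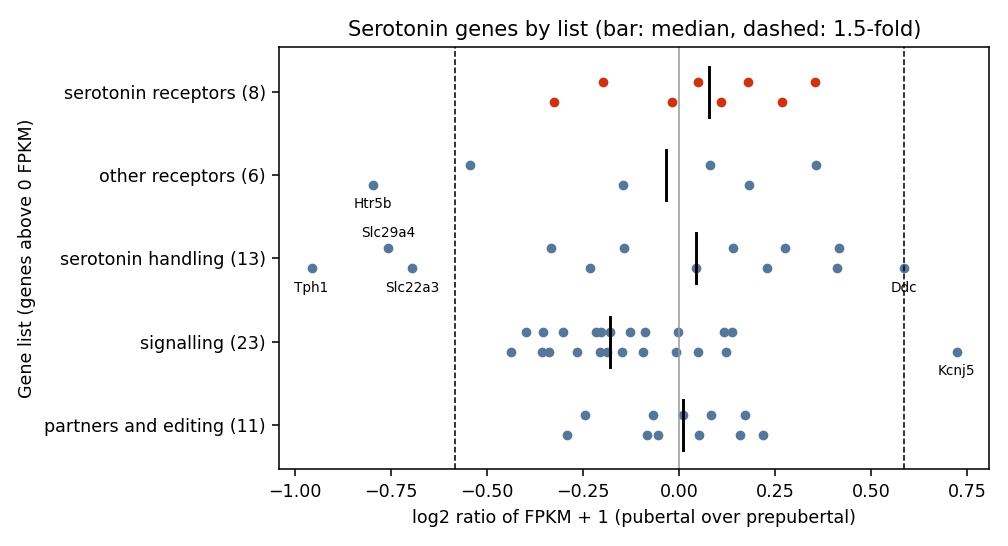
Log2 ratio of FPKM + 1 (pubertal over prepubertal) of each gene above 0 FPKM, by list, with a bar at the median of each list, dashed lines at 1.5-fold and names for genes past them. The 8 receptor genes (red) have a median of 0.08 and lie inside the lines, and the signalling list has a median of -0.18.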

How the data were processed

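Hypothalamic RNA of prepubertal and pubertal rats was depleted of ribosomal RNA and made into strand-specific, paired-end libraries. After alignment with TopHat and assembly with Cufflinks 2.1.1 and Scripture, the authors estimated FPKM per transcript with Cuffdiff 2.1.1 and deposited these values. The submitters' processing notes name build Rnor_5.0, while the paper's methods name a later annotation. How the 3 rats per stage were combined is not stated. The authors' fold changes, p-values and q-values were not used, and neither were the lncRNA tables.

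FPKM was summed per gene over its transcripts, by the gene names of the comparison table. Log2 ratios used a pseudocount of 1. With 1 library per stage no test was made, and a 1.5-fold limit was set beside its share among all genes. The FPKM of 1 fragment was fitted against length, with 418 prepubertal and 450 pubertal transcripts, as 1 over the product of the scaled library total (about 20800000 and 16200000 fragments) and the length less an offset (257 and 251 nt). Levels have exact Poisson intervals and ratios exact conditional binomial intervals. Ratios relative to Htr2c have normal intervals on the log scale. The fit and intervals were run on data simulated from the fitted totals and offsets with counting error alone. Such data check the computation, and not whether the fit holds for these libraries. The members and lists were chosen with earlier results of these data known. All 8 receptors were named. From the lists of other receptors, serotonin handling, signalling, and partners and editing, genes past 1.5-fold, the 3 most abundant of each, Tph2, Slc6a4 and Slc18a2 were named. The rule did not cover the marker lists, whose examples were named after their values were seen, and Slc18a1, Fev and the other genes named were chosen likewise. Computation used scipy 1.17.1, pandas 2.3.3 and numpy 2.4.6 under Python 3.11.15, and plots matplotlib 3.10.9.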

Additional observations from a re-analysis of the deposited data

How the results depend on the processing

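A pseudocount of 0.1, filters on mean FPKM of at least 0.1 and 1, the transcript with the highest mean FPKM, scaling to equal medians, 75th percentiles or neuronal genes, the FPKM of the comparison table and a 2-fold limit were tried, and scaling to equal Htr2c was added after the data were seen. The number of receptor genes past 1.5-fold was 1 with a pseudocount of 0.1, where Htr6 reached -0.59, and 0 otherwise. At that pseudocount 15.9% of all 18022 genes passed 1.5-fold. The median log2 ratio ranged from 0.03 with equal Htr2c to 0.14 with equal medians. Of 71 values of single receptor genes, 29 were identical to those reported, since the setting left them as they were, and 40 of the other 42 stayed within the counting interval taken on the log2(FPKM + 1) scale. The exceptions were Htr2c at equal medians (0.11) and Htr6 with a pseudocount of 0.1, which changes the scale and not the FPKM ratio, 0.589 with an interval from 0.184 to 1.66. Scaling multiplied the pubertal FPKM by factors between 0.965 and 1.05. The counting intervals of receptor genes with few fragments are wider than that, so their values could hardly leave them under scaling. The direction differed for Htr1b alone, from -0.06 to 0.04, while Htr2c is 0 by construction when scaled to itself. Htr4 ranged from 0.17, with its most abundant transcript, to 0.41, and Htr7 from -0.37 to -0.27. Of the 14 genes for making and clearing serotonin, 4 passed 1.5-fold, and 5 did when 0.1 was added to the FPKM. Counting intervals of the FPKM ratio under other scalings were added after the data were seen. They excluded 1 for 4 of the 8 receptors with equal medians and for 3 with equal 75th percentiles or neuronal genes. The share of all genes was not computed under these scalings, so these counts cannot be read against it. The 10 receptor transcripts had the same FPKM in both tables, which differed for 13 mRNA transcripts. No paired analysis was possible because each stage has 1 library, and for the same reason no replicate could be left out. Depth limited Htr6 most.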

Other observations

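Tph1 and Slc18a1, both known from the pineal gland, were lower at puberty, Tph1 with 101 and 12 fragments and Slc18a1 with 13 and 1. The ratio of Slc18a1 was 0.0983, with a counting interval from 0.00231 to 0.654. The defining pineal genes were near the limit of detection in both libraries, with Aanat at 0.155 and 0.0989 FPKM, Asmt at 0.186 and 0.523 FPKM and Crx listed at 0. Another 3 genes of the list were past 1.5-fold and lower at puberty, against 2.31% of all genes. Neurod1 was at 1.43 and 0.429 FPKM (47 and 11 fragments, interval of the ratio from 0.140 to 0.585). Gngt2 was at 3.74 and 2.04 FPKM, and Gngt1 at 1.19 FPKM before puberty and listed at 0 at puberty. Of 9 pineal markers, chosen after the values were seen, 8 were above 0 FPKM, 3 were higher and 5 lower at puberty, and their summed level was 9.38 and 5.47 FPKM. Their part in the values of Tph1 and Slc18a1 was not tested.

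All 4 red blood cell markers and 4 of 5 pituitary markers were higher at puberty, with a summed level of 6406 and 12539 FPKM for the former and of 31.6 and 44.0 FPKM for the latter. Astrocyte markers summed to 748 and 749 FPKM, oligodendrocyte markers to 10281 and 11152 FPKM, and microglia markers to 111 and 139 FPKM. The receptor genes were summed at 113 and 116 FPKM over the same libraries, and the part of these cells in the receptors' values was not tested.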
